A study of Saccharomyces cerevisiae with 40 samples.

Results

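The 9 genes described here make, activate or take up thiamine (vitamin B1), unproven for THI73, or switch those genes on in budding yeast. They were chosen by name from the 6661 transcripts of the deposited tables, with earlier results of these data known and with the difference between the strains in WYF in view, so the WYF comparisons are given as a description, by values and fold changes, and no p-value enters them. The YM results were known too, so the adjusted p-values given for YM, over all genes tested, are not independent evidence about these genes. They are YGR144W (THI4), YPL214C (THI6), YOL055C (THI20) and YOR143C (THI80), which make thiamine and thiamine diphosphate, YLR237W (THI7), YLR004C (THI73) and YBR092C (PHO3), which act at the cell surface, and the regulators YBR240C (THI2) and YDL080C (THI3). RNA was sequenced from 40 libraries, 5 replicates in each of 8 groups, to ask how a sensitive and a resistant strain change their expression on exposure to Credit41 (Cr41), a commercial glyphosate formulation. The sensitive strain, called S288c here, is GSY147, a laboratory strain of S288c background, and the resistant strain, RM11, is an agricultural isolate. Each strain is a single genotype.

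The groups were S288c in WYF with Cr41, S288c in WYF untreated, RM11 in WYF with Cr41, RM11 in WYF untreated, S288c in YM with Cr41, S288c in YM untreated, RM11 in YM with Cr41 and RM11 in YM untreated. YM is minimal medium and WYF is the same medium with tryptophan, tyrosine and phenylalanine, the amino acids whose synthesis glyphosate blocks. Cells in mid-log growth received Cr41 for 90 min. The source labels give the dose as 0.25% Cr41, which the study states as a final concentration of 0.25% glyphosate. Totals lay between 4224356 and 7866046 estimated counts per library. Every YM library was run on one lane and every WYF library on another, so an effect of medium and an effect of lane cannot be told apart. Strains and treatments were compared within a lane. Reads of both strains were assigned to S288c transcripts, so a low RM11 value from lower expression and one from sequence that does not match cannot be told apart. Nothing in the labels says that the replicates are separate cultures, and p-values measure only the spread between these samples.

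Yeast builds thiamine from a thiazole and a pyrimidine that are made separately and then joined, and it can also take the vitamin up from the medium. The genes of both routes are known to be held low when thiamine is plentiful and to be switched on when it is scarce, through the activators Thi2 and Pdc2 and the sensor Thi3. The active form, thiamine diphosphate, is the cofactor of pyruvate decarboxylase, transketolase and acetolactate synthase, which serve fermentation, the pentose phosphate pathway and branched-chain amino acid synthesis.

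All 9 genes were found in the RefSeq annotation of assembly R64 by systematic name, with a coding length equal to the deposited transcript length. THI4 lies on the plus strand at chrVII:780399-781379 and THI7 on the plus strand at chrXII:612367-614163. The other 7 lie on the minus strand: THI6 at chrXVI:148569-150191, THI20 at chrXV:224420-226075, THI80 at chrXV:601383-602342, THI73 at chrXII:157934-159505, PHO3 at chrII:427698-429101, THI2 at chrII:700490-701842 and THI3 at chrIV:310642-312471. Of the 31-base words of PHO3, 15.4% also occur in another transcript, mostly its neighbour PHO5, and for THI7 the share is 6.68%, mostly with THI72, so part of their reads could be assigned to the other copy. The other 7 genes share none.

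The 300 bases that end 51 bases before the start codon are printed for 4 of the genes, because these genes differ in how they changed in S288c. THI4 had the highest fold change of the 9, THI20 and PHO3 were also higher with Cr41 in both media, and THI80 reached the fold threshold in neither. They are RefSeq R64 sequence on the coding strand, 5′ to 3′. Capitals mark the letters TATAAA, the core of a TATA box, on either strand (TTTATA on the other strand). The windows are THI4 at chrVII:780049-780348 (plus strand), THI20 at chrXV:226126-226425 (minus strand), PHO3 at chrII:429152-429451 (minus strand) and THI80 at chrXV:602393-602692 (minus strand).
THI4: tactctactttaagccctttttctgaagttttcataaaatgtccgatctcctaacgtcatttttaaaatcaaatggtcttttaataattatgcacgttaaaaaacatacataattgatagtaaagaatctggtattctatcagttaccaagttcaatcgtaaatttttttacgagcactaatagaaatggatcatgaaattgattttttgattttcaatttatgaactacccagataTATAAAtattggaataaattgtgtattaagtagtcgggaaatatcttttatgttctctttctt
THI20: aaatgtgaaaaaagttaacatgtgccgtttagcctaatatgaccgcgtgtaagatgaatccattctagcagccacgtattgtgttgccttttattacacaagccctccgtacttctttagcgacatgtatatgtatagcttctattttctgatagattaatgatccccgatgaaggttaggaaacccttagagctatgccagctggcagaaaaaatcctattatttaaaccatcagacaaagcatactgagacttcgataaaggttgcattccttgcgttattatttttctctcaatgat
PHO3: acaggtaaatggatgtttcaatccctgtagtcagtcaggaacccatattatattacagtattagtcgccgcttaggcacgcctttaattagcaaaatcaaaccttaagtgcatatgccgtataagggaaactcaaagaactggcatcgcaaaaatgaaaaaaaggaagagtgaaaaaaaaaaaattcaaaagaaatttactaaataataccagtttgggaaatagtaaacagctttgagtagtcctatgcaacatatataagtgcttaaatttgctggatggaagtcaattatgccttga
THI80: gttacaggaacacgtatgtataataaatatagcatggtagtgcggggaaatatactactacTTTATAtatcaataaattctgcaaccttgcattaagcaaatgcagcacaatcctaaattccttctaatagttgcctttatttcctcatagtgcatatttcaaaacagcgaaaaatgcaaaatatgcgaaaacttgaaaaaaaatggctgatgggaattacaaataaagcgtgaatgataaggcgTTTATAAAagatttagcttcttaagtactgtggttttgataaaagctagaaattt

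TATAAA occurred in the windows of THI4, THI6, THI7 and THI80, 4 of 9, against 47.6% of 6026 windows of the same length before annotated coding genes. It started 113 bases before the start codon in THI4, 112 in THI6 and 306 in THI7, and at 3 places in THI80 (289, 105 and 103), the last 2 of which overlap on opposite strands. TGACTC, the core of the Gcn4 site, was searched on both strands and occurred 250 bases before THI2 only, against 8.03% of all windows. CACGTG, bound by Pho4 and other factors, was in none of the 9 windows and in 4.02% of all. TATAAA was thus in 3 of the 7 genes past the fold threshold in S288c and in 1 of the 2 that were not, THI80.

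With Cr41 in WYF, S288c carried far more of most of these 9 transcripts than without it, and RM11 did not. The 9 genes together took 0.142% ± 0.00966 of all counts in S288c with Cr41 and 0.0157% ± 0.00106 in untreated S288c, against 0.0240% ± 0.000600 and 0.0234% ± 0.00174 in RM11 (SD, n = 5 each). In YM the share was 0.0483% ± 0.00526 with Cr41 and 0.0121% ± 0.000782 untreated in S288c, and 0.0249% ± 0.00161 and 0.0265% ± 0.00135 in RM11. In untreated cells of either medium the share was thus lower in S288c than in RM11, in WYF mainly through THI7, and the ranges did not meet. These are shares of the counts of a library, as are CPM (counts scaled to a fixed library total, here over all libraries by the TMM method). A single gene, SED1, took between 3.52% and 9.43% of the counts of a library. In S288c in YM it took 3.52% to 4.13% untreated and 8.81% to 9.43% with Cr41. In RM11 in YM with Cr41, it took 4.82% in replicate 5 and 7.94% to 8.81% in the others. The TMM factor of that replicate was 1.22, against 1.03 to 1.04 in the others.

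THI4 encodes the thiazole synthase, a protein used up in its own reaction. It had 306, 372, 392, 480.4 and 388 CPM in the 5 S288c WYF libraries with Cr41, against 3.29, 1.64, 1.32, 2.53 and 5.51 CPM in the 5 untreated ones. The lowest treated library stood far above the highest untreated one, and the fold change was 135 (log2 7.08 ± 0.23, SE). In YM the values were 23.5, 28.5, 24.9, 33.3 and 20.8 CPM with Cr41, against 0.449, 1.41, 1.09, 0.843 and 0.194 CPM untreated. The groups again did not overlap, and THI4 rose 31.4-fold (log2 4.97 ± 0.31, edgeR adjusted p = 4.6e-08). Untreated S288c cells in YM held only 1 to 10 THI4 reads per library, and the ratio of the summed reads, 31.7, had an exact 95% interval of 21.3 to 49.3 from counting error alone. With limma on log2(TPM + 1), a scale that understates changes of low genes, the YM change of THI4 was 3.59.

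In RM11, THI4 stayed at a few reads in every library. RM11 in WYF had 1.12, 0.697, 0.461, 0.360 and 0.365 CPM with Cr41, against 0.457, 0.485, 0.442, 0.574 and 0.913 CPM untreated, which is 16 reads and 18 reads over 5 libraries each. The ratio of these sums was 1.02, with an exact 95% counting interval of 0.489 to 2.13. In YM the sums were 29 reads with Cr41 and 28 reads untreated, with a ratio of 1.05 and an interval of 0.601 to 1.83. THI4 failed the filter on low counts in both RM11 comparisons and was not tested there. Changes of a size within these intervals were not detectable at this depth.

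**Figure D1:**
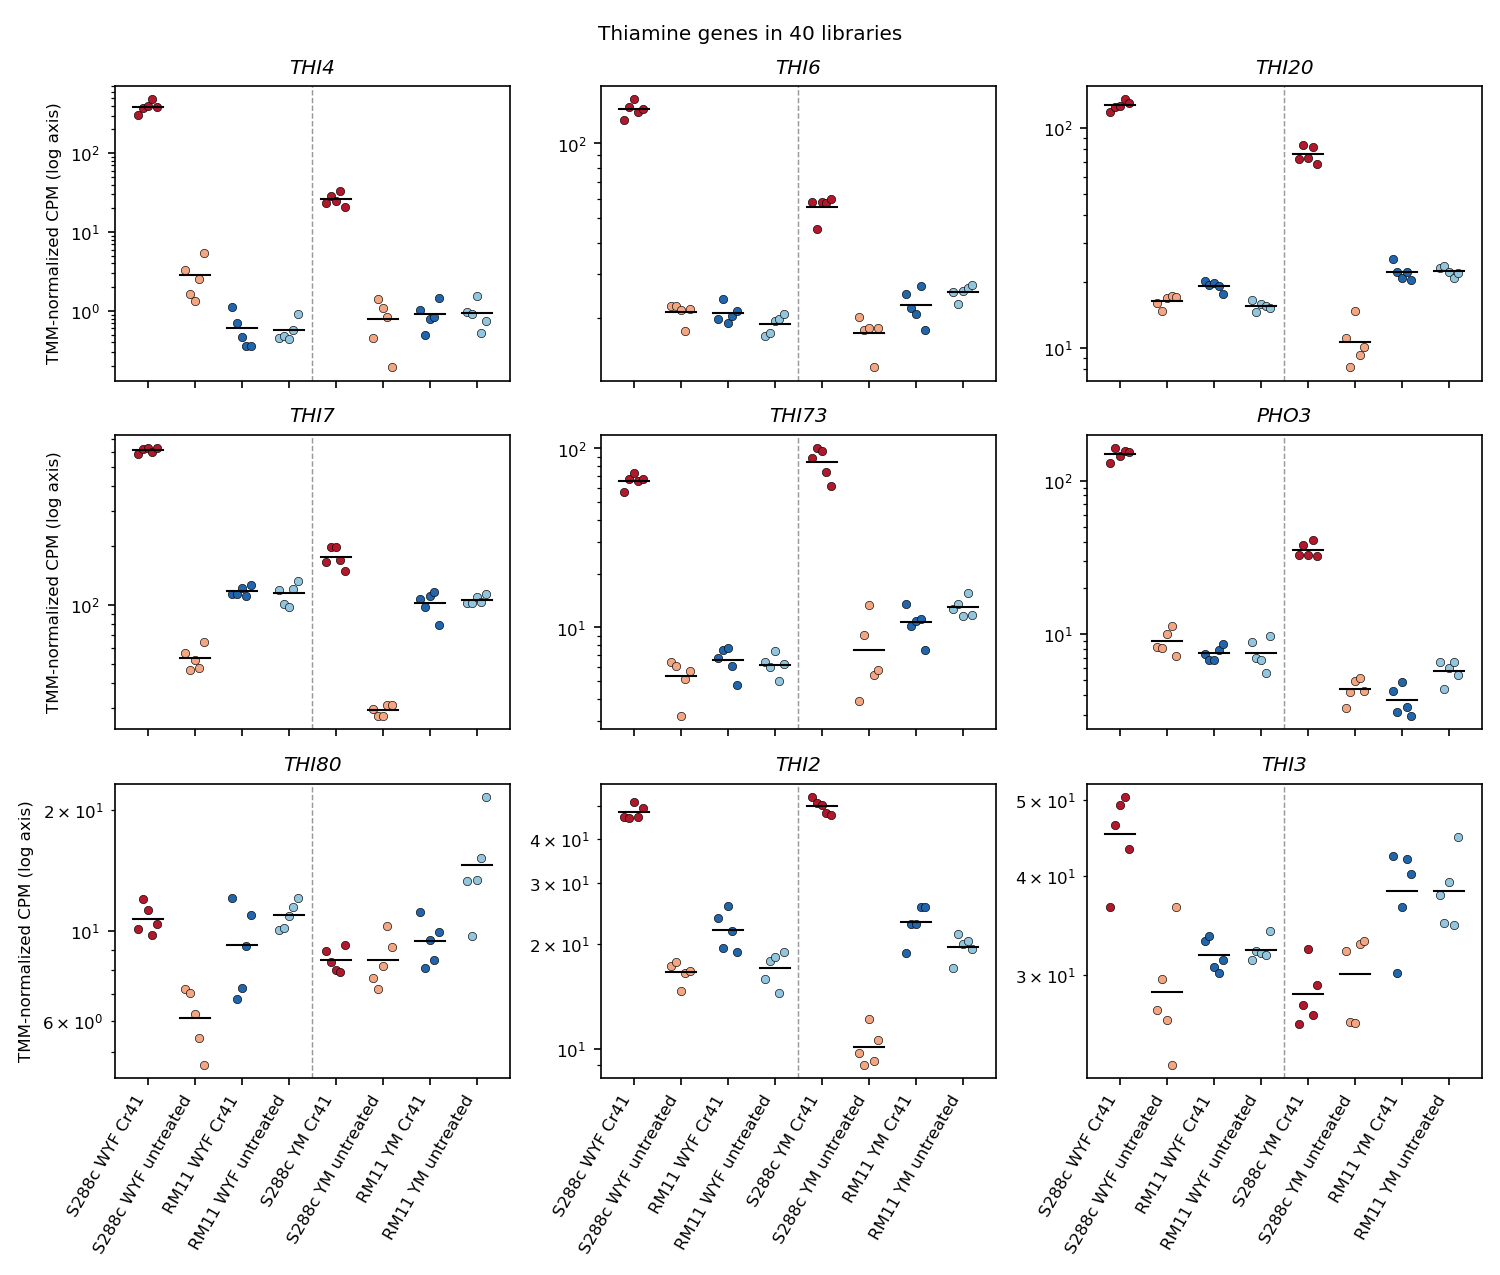
TMM-normalized CPM (log axis with its own range in each panel) of the 9 thiamine genes in the 40 libraries: points are libraries, bars are group means, and the dashed line parts WYF (left) from YM (right). For THI4, THI6, THI20, THI7 and PHO3 the S288c WYF Cr41 libraries lie above those of every other group, while for THI80 and THI3 they overlap RM11 groups.

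THI6 joins the thiazole and pyrimidine parts of the vitamin and also carries a thiazole kinase. In S288c it had between 124 and 150.3 CPM in WYF with Cr41, against 17.7 to 22.3 CPM untreated (6.54-fold, log2 2.71 ± 0.08). In YM it had 58.1, 45.2, 58.1, 57.9 and 59.7 CPM with Cr41, against 20.1, 17.9, 18.2, 12.6 and 18.2 CPM untreated. Replicate 2 with Cr41 was the lowest of its group and still above every untreated library, and THI6 rose 3.22-fold (log2 1.69 ± 0.12, adjusted p = 1.3e-07). In RM11 the means were 20.8 ± 1.79 CPM with Cr41 and 18.8 ± 1.59 CPM untreated in WYF, and 22.4 ± 3.54 CPM and 25.3 ± 1.71 CPM in YM (SD, n = 5 each). The RM11 ranges overlapped in both media, and the YM difference did not pass the test (log2 -0.18 ± 0.11, adjusted p = 0.32).

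THI20 phosphorylates the pyrimidine part and, in another domain, degrades thiamine. S288c in WYF had 118, 124, 126, 134 and 129 CPM with Cr41, against 16.0, 14.7, 16.8, 17.2 and 16.9 CPM untreated (7.71-fold, log2 2.95 ± 0.07). Its YM values were 71.8, 83.5, 72.8, 81.6 and 68.3 CPM with Cr41, against 11.1, 8.17, 14.8, 9.27 and 10.1 CPM untreated. The groups were far apart in both media, and in YM THI20 rose 7.15-fold (log2 2.84 ± 0.14, adjusted p = 5.4e-09). RM11 in WYF had 20.2, 19.3, 19.7, 19.1 and 17.5 CPM with Cr41, against 16.5, 14.6, 15.8, 15.5 and 15.2 CPM untreated. This was the only gene of the 8 tested whose RM11 ranges did not meet in WYF, at a log2 difference of 0.31 ± 0.08. In YM its RM11 means were 22.1 ± 1.90 CPM with Cr41 and 22.2 ± 1.03 CPM untreated (log2 -0.01 ± 0.09, adjusted p = 0.97).

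THI80, the thiamine pyrophosphokinase that makes the active cofactor, moved little. S288c in WYF had 9.79 to 12.01 CPM with Cr41, against 4.66 to 7.19 CPM untreated, ranges that did not meet, with a log2 difference of 0.82 ± 0.14 that fell short of the threshold of 1. In YM the S288c means were 8.48 ± 0.582 CPM with Cr41 and 8.48 ± 1.24 CPM untreated (log2 0.01 ± 0.15, adjusted p = 0.94). In RM11 its mean was 9.43 ± 1.23 CPM with Cr41 and 14.6 ± 4.32 CPM untreated in YM, a log2 difference of -0.61 ± 0.19 with an adjusted p = 0.04 that was also under the fold threshold and whose ranges overlapped. In RM11 in WYF the log2 difference was -0.26 ± 0.15.

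At the cell surface, THI7 is the main thiamine transporter of the plasma membrane. S288c in WYF had 584, 620.4, 625, 595 and 625 CPM with Cr41, against 57.0, 46.8, 52.2, 47.5 and 64.6 CPM untreated (11.4-fold, log2 3.51 ± 0.09). In YM it had 165, 196, 196, 169.8 and 149 CPM with Cr41, against 29.3, 27.2, 27.2, 31.02 and 31.02 CPM untreated. THI7 thus rose 6.06-fold in YM (log2 2.60 ± 0.10, adjusted p = 4.9e-10), with no overlap. RM11 sat between the S288c groups in every library: it had 111 to 126 CPM with Cr41 and 97.9 to 132 CPM untreated in WYF, and 78.8 to 116 CPM with Cr41 and 101 to 114 CPM untreated in YM. The change in RM11 was 0.04 ± 0.08 in WYF and -0.06 ± 0.09 in YM on the log2 scale (adjusted p = 0.73 in YM).

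THI73 encodes a putative permease of the plasma membrane, named for its regulation by thiamine rather than for a proven substrate. S288c in WYF had 56.8 to 72.5 CPM with Cr41, against 3.20 to 6.44 CPM untreated (12.4-fold, log2 3.63 ± 0.14). The YM libraries had 88.4, 100.3, 96.5, 73.9 and 61.3 CPM with Cr41, against 3.89, 9.02, 13.3, 5.39 and 5.82 CPM untreated. The untreated YM libraries were spread widely, but all lay well under the treated ones, and THI73 rose 11.4-fold (log2 3.51 ± 0.28, adjusted p = 4.0e-07). In RM11 it had means of 6.55 ± 1.19 CPM with Cr41 and 6.20 ± 0.844 CPM untreated in WYF, and 10.7 ± 2.16 CPM and 13.0 ± 1.62 CPM in YM (log2 -0.29 ± 0.15, adjusted p = 0.22).

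PHO3 is an acid phosphatase of the periplasm that frees thiamine from its phosphates so that it can be taken up. S288c in WYF had 129.6, 162, 145, 155 and 152 CPM with Cr41, against 8.23, 8.18, 9.98, 11.2 and 7.20 CPM untreated (16.3-fold, log2 4.03 ± 0.11). In YM it had 32.6, 38.3, 32.9, 41.2 and 32.1 CPM with Cr41, against 3.29, 4.23, 4.92, 5.23 and 4.27 CPM untreated. PHO3 rose 8.11-fold in YM with no overlap (log2 3.02 ± 0.14, adjusted p = 3.8e-09), or 2.41 on the log2(TPM + 1) scale. In RM11 in YM it had 4.29, 3.13, 4.91, 3.38 and 2.94 CPM with Cr41, against 6.56, 4.41, 6.03, 6.54 and 5.42 CPM untreated, so the difference ran the other way (log2 -0.62 ± 0.19, adjusted p = 0.041), with 1 untreated library inside the treated range and under the fold threshold. In RM11 in WYF the log2 difference was -0.01 ± 0.16. PHO5, the neighbouring phosphatase that shares words with PHO3, had 4.56 ± 1.40 CPM with Cr41 and 5.08 ± 1.02 CPM untreated in S288c in WYF (SD, n = 5 each). In S288c in YM, PHO5 was higher with Cr41, at 9.16 ± 0.895 CPM against 5.56 ± 0.574 CPM untreated, with ranges apart. How far reads shared between PHO3 and PHO5 enter these values was not tested.

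Of the regulators, THI2 rose in YM and THI3 did not pass. THI2 encodes a zinc finger activator of the thiamine genes. S288c in WYF had 46.3, 46.1, 51.3, 46.3 and 49.3 CPM with Cr41, against 17.4, 17.8, 14.7, 16.5 and 16.7 CPM untreated (2.88-fold, log2 1.52 ± 0.08). YM cells had 52.9, 50.8, 50.3, 47.6 and 47.0 CPM with Cr41, against 9.73, 9.02, 12.2, 9.27 and 10.7 CPM untreated. THI2 rose 4.93-fold in YM (log2 2.30 ± 0.11, adjusted p = 2.9e-09), to about the same treated level as in WYF. In RM11 the log2 differences were 0.36 ± 0.11 in WYF and 0.22 ± 0.11 in YM (adjusted p = 0.2), and the ranges overlapped.

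THI3, the sensor that binds thiamine diphosphate and is related in sequence to pyruvate decarboxylase, had 36.6 to 50.4 CPM with Cr41 and 23.1 to 36.6 CPM untreated in S288c in WYF (log2 0.67 ± 0.13). The lowest treated library and the highest untreated one were level. In YM its S288c means were 28.4 ± 2.56 CPM with Cr41 and 30.1 ± 3.63 CPM untreated (log2 -0.07 ± 0.10, adjusted p = 0.54). In RM11 its log2 differences were -0.02 ± 0.06 in WYF and 0.00 ± 0.11 in YM (adjusted p = 0.99).

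**Figure D2:**
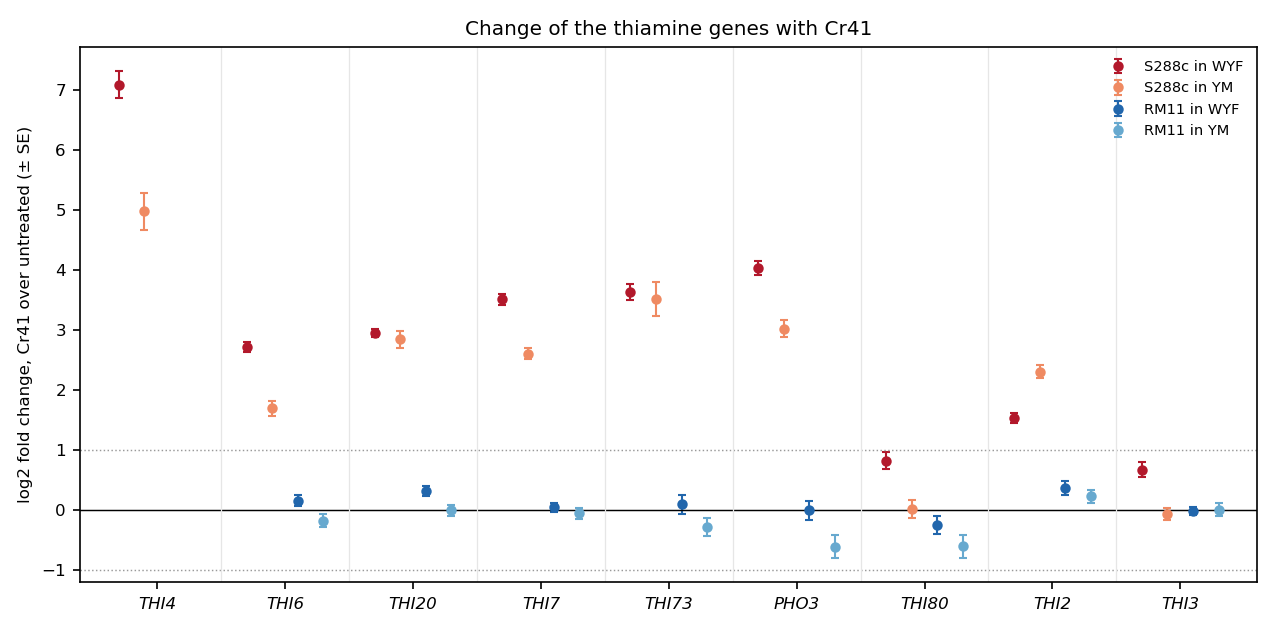
Log2 fold change of the 9 genes, Cr41 over untreated, in each strain and medium (edgeR); points are estimates, bars are ± 1 standard error from 5 libraries a group, and dotted lines mark the fold threshold. S288c values reach 7.08 for THI4 in WYF, all 8 RM11 genes tested lie between the dotted lines, and THI4 has no RM11 point because it did not pass the filter there.

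In YM a gene was called when its Benjamini-Hochberg adjusted p over all genes tested was under 0.05 and its log2 change was 1 or more in size. In WYF the fold threshold alone was counted, as a description. In S288c in WYF, 7 of the 9 had a log2 change of at least 1 and none of -1 or below, and 3.06% and 5.43% of 5581 genes did. Nothing is read from this count, since the genes were chosen with WYF results in view. The ranges did not overlap for 8 of 9, against 36.5% of all genes, and the median log2 change was 2.95, against -0.01 for all genes. In S288c in YM, 7 of 9 were called higher and none lower, against 11.0% and 8.82% of 5716 genes, and 7 of 9 did not overlap, against 53.4%. Nothing is read from these counts either, since the YM results were known too. The median was 2.60 in YM, against 0.00 for all genes. THI80 and THI3 reached the fold threshold in neither medium.

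In RM11 in WYF, 0 of the 8 genes that passed the filter reached the fold threshold, which 1.23% of 5469 genes passed upward and 0.475% downward, and 1 of 8 did not overlap, against 23.8%. The median log2 change of the 8 was 0.06, against 0.00 for all genes. In RM11 in YM, 0 of 8 were called by edgeR or DESeq2 (2 at an unadjusted p under 0.05), where 0.946% of 5496 genes were higher and 0.710% lower, and none of 8 had ranges apart, against 15.0%. The median was -0.12, against 0.01, and 2 of the 8 (PHO3 and THI80) had an adjusted p under 0.05 below the fold threshold. With so few genes past the threshold in RM11 at all, counts of 0 among 8 genes are near the share over all genes.

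How far the response to Cr41 differed by strain was then asked by subtracting the RM11 log2 change from the S288c one, in a model of the 20 libraries of a medium. In YM, 7 of 9 genes were called with a larger change in S288c and none with a smaller one, against 11.0% and 8.21% of 5795 genes. The YM results were known when the genes were chosen, so nothing is read from this count. The difference was 4.93 ± 0.52 for THI4 (adjusted p = 6.3e-08), 3.79 ± 0.32 for THI73 (2.3e-09), 3.64 ± 0.23 for PHO3 (3.7e-11) and 2.65 ± 0.13 for THI7 (6.1e-13). For THI20 it was 2.84 ± 0.16 (adjusted p = 3.8e-12), for THI2 2.07 ± 0.14 (1.0e-10) and for THI6 1.86 ± 0.17 (5.2e-09). THI80 reached 0.63 ± 0.25 (adjusted p = 0.037), under the fold threshold, and THI3 -0.08 ± 0.15 (0.67). For THI4, whose RM11 libraries hold 3 to 9 reads each in YM, the fitted value depends on how such low counts are treated, and with limma on log2(TPM + 1) it was 3.57, and that of PHO3 was 2.82.

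In WYF, the contrast the genes were chosen on, the same difference is given as a description. It was at least 1 for 8 of 9 genes and -1 or below for none, where 3.44% and 5.50% of 5669 genes were, and nothing is read from this count. It ran from 1.08 ± 0.21 for THI80 and 1.17 ± 0.13 for THI2 to 4.04 ± 0.19 for PHO3 and 7.05 ± 0.80 for THI4. The small differences of THI80 ran in opposite directions in the strains. It stood under 1, leaving 7, when RM11 WYF Cr41 replicate 2 or replicate 3 was left out and with limma on log2(TPM + 1). THI3 was at 0.70 ± 0.14.

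Set side by side under Cr41, S288c held more of most of these transcripts than RM11. In WYF, the medium the genes were chosen on, 7 of 9 were past the fold threshold upward in S288c and none downward, where 7.96% and 9.44% of all genes were. This count describes the choice of genes and is not a test. THI4 had a mean of 388 ± 62.2 CPM in S288c and 0.601 ± 0.321 CPM in RM11, 9406 reads and 16 reads over 5 libraries each. The ratio of these sums after scaling was 667, with an exact 95% counting interval of 411 to 1168, and the fitted log2 difference was 9.35 ± 0.23, or 7.66 with limma on log2(TPM + 1). PHO3 was higher by 4.32 ± 0.12 on the log2 scale, THI73 10.1-fold (log2 3.33 ± 0.13), THI20 6.64-fold (2.73 ± 0.06), THI6 6.64-fold (2.73 ± 0.08), THI7 5.24-fold (2.39 ± 0.08) and THI2 2.19-fold (1.13 ± 0.09). THI80 ranges overlapped between the strains, and THI3 was higher by 0.51 ± 0.10 on the log2 scale, without overlap.

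Under Cr41 in YM, 6 of 9 were called higher in S288c than in RM11 and none was called lower, against 14.9% and 12.7% of 5795 genes. This count too describes genes chosen with the YM results known. THI4 was higher by 4.78 ± 0.30 on the log2 scale (adjusted p = 5.7e-12), PHO3 by 3.23 ± 0.16 (1.2e-13), THI73 by 2.98 ± 0.21 (5.3e-11) and THI20 by 1.77 ± 0.11 (2.1e-12). THI6 was higher by 1.32 ± 0.11 (1.1e-09) and THI2 by 1.11 ± 0.10 (9.1e-10). With limma on log2(TPM + 1) THI2 stood at 0.96, under the fold threshold, THI4 at 3.51 and PHO3 at 2.63. THI7 was higher by 0.79 ± 0.09, with an adjusted p = 8.0e-08 under the fold threshold, and its 5 S288c libraries all lay above its 5 RM11 libraries. THI3 was lower in S288c by 0.43 on this scale (-0.43 ± 0.10, adjusted p = 8.8e-04), also under the threshold.

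Without Cr41 the order of the strains was different. In YM, 2 of 9 genes were called lower in S288c than in RM11 and none higher, against 8.18% of genes lower and 7.30% higher. The median log2 difference of the 9 was -0.79, against 0.02 for all genes. With the YM results known at the choice of genes, these values are a description. THI7 had 27.2 to 31.02 CPM in S288c and 101 to 114 CPM in RM11 (log2 -1.86 ± 0.10, adjusted p = 5.2e-13). THI20 had 8.17 to 14.8 CPM in S288c and 20.8 to 23.5 CPM in RM11 (log2 -1.07 ± 0.12, adjusted p = 1.1e-07). THI2 came close to the threshold (log2 -0.96 ± 0.11, adjusted p = 1.0e-07) and its ranges were apart. All 9 estimates were below 0, with THI4 the nearest to it (-0.15 ± 0.40, adjusted p = 0.8). The count was 1 without S288c YM untreated replicate 2, when THI20 stood at -0.99, and 4 without S288c YM untreated replicate 3, when THI73 and THI2 were called too; without RM11 YM untreated replicate 1, THI2 was called at -1.03.

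In untreated WYF cells, again as a description, 1 of 9 was past the fold threshold upward in S288c (6.49% of genes) and 1 downward (4.87%). The median log2 difference of the 9 was -0.04, against 0.01 for all genes. THI7 again was lower, at 46.8 to 64.6 CPM in S288c and 97.9 to 132 CPM in RM11 (log2 -1.09 ± 0.09). THI4 was higher, at 82 reads over 5 libraries in S288c and 18 reads in RM11, a ratio of 5.04 with an exact 95% counting interval of 2.999 to 8.92. With only these libraries in the fit THI4 failed the filter on low counts, which left 1 gene past the threshold. With limma on log2(TPM + 1) the difference of THI4 was 1.12, against 2.29 ± 0.41 here. Part of the THI7 sequence matches THI72, and whether RM11 alleles of either gene assign differently was not tested.

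**Figure D3:**
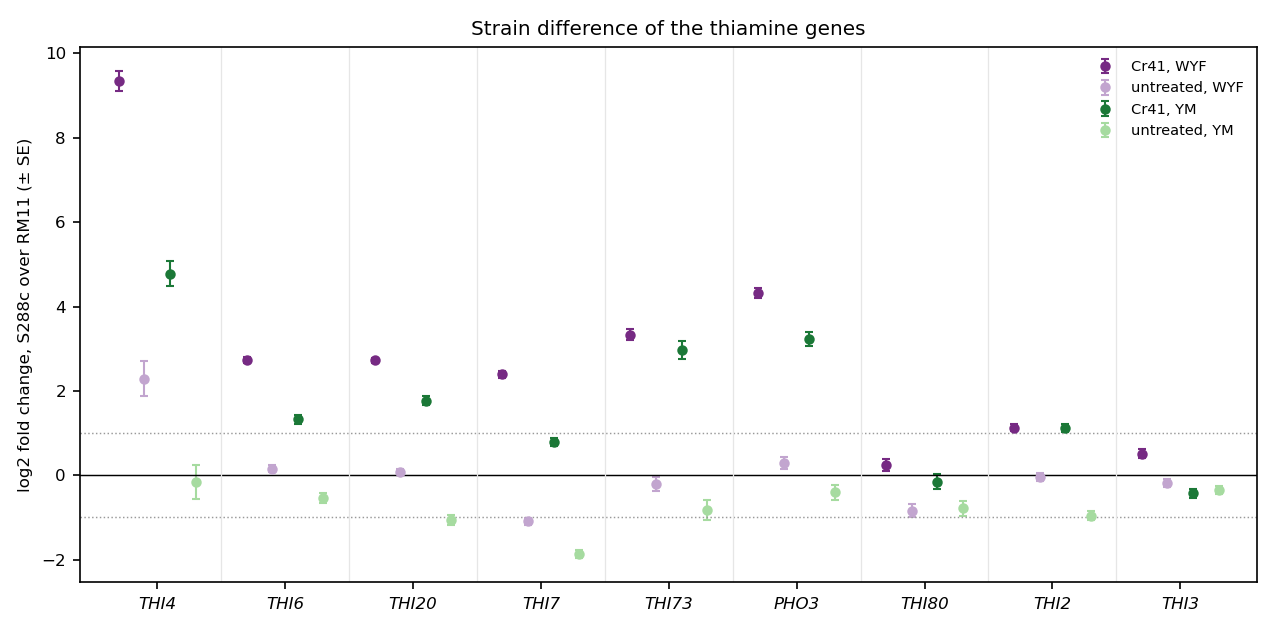
Log2 fold change of the 9 genes, S288c over RM11, for Cr41 and untreated cells in each medium (edgeR); points are estimates, bars are ± 1 standard error from 5 libraries a group, and dotted lines mark the fold threshold. With Cr41 the 7 genes from THI4 to PHO3 and THI2 lie above 0 in both media, and untreated YM values reach down to -1.86 for THI7.

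Over all 8 groups, 6 of the 9 genes had their highest mean CPM in S288c in WYF with Cr41. THI73 and THI2 were highest in S288c in YM with Cr41, but their ranges overlapped those of S288c in WYF with Cr41, and THI80 was highest in untreated RM11 in YM. For THI4, THI6, THI20, THI7 and PHO3, S288c in WYF with Cr41 was followed by S288c in YM with Cr41, with no overlap between them or with any group below. The lowest mean was in untreated S288c in YM for THI6, THI20, THI7 and THI2 and in untreated S288c in WYF for THI73 and THI80. For THI7 every RM11 group lay above both untreated S288c groups, and the 4 RM11 groups overlapped one another in order. The number with the highest mean in S288c in WYF with Cr41 was 7 on the TPM scale and 5 without the TMM factors.

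Between genes, levels were compared on the deposited TPM scale, which divides by effective transcript length. In S288c in WYF with Cr41, THI4 (287 ± 48.2 TPM) and THI7 (218 ± 8.10 TPM) led, followed by PHO3 (71.2 ± 6.36), THI6 (55.8 ± 4.15) and THI20 (50.3 ± 3.15), and THI80 was lowest (10.2 ± 0.801; SD, n = 5 each). In untreated S288c in WYF, THI7 led at 20.3 ± 2.39 TPM and THI4 was lowest at 2.22 ± 1.26 TPM. In all 4 RM11 groups THI7 was highest, at means between 36.4 and 39.4 TPM, and THI4 lowest, at 0.404 to 0.702 TPM. THI4 thus stood last of the 9 in every untreated group and every RM11 group, and first only in S288c in WYF with Cr41.

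The genes whose level followed these 9 most closely were looked for among 5056 genes with a mean of at least 10 CPM. Likeness was the Pearson correlation with the mean profile of the 9 over the 8 group means of log2(CPM + 1), a description of 8 points that share libraries, lanes and reference. PDC5, a pyruvate decarboxylase and so a user of thiamine diphosphate, was the most like (r = 0.986). It was followed by PTC4 (0.961), a protein phosphatase, and PET18 (0.948). The next were ROD1 (0.947), an arrestin-like adaptor, PDR12 (0.931), a weak-acid exporter, DOA4 (0.929), a deubiquitinase, SSY1 (0.918), an amino acid sensor, and SIZ1 (0.915), a SUMO ligase. Some of these varied little: PTC4 had 74.7 CPM in S288c in WYF with Cr41 and 57.9 CPM in untreated cells. To THI4 alone the nearest were PIN4 (0.980), the enolase ENO2 (0.960), the checkpoint kinase TEL1 (0.954), PDC5 (0.954) and PDL32 (0.946). Among the 9, THI6 (0.984), PHO3 (0.979) and THI20 (0.936) were most like THI4 and THI80 (0.03) and THI3 (0.44) least.

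PDC5 and the other enzymes that need thiamine diphosphate did not move as a block. PDC5 had 4736 ± 275 CPM with Cr41 and 21.3 ± 16.3 CPM untreated in S288c in WYF (SD, n = 5 each). This was a log2 change of 7.83 ± 0.39 (SE), and its untreated libraries spread from 8.59 to 49.3 CPM. In YM it had 416 ± 49.7 CPM with Cr41 and 11.8 ± 2.28 CPM untreated (log2 5.14 ± 0.13, adjusted p = 3.5e-11). In RM11 its means were 22.2 CPM with Cr41 and 26.8 CPM untreated in WYF, and 61.8 CPM and 48.2 CPM in YM (log2 0.36 ± 0.13, adjusted p = 0.077). Of its 31-base words, 4.15% are shared, mostly with PDC1.

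Of the 11 enzymes listed, 4 were past the fold threshold upward in S288c in WYF (PDC1, PDC5, PDC6 and the transketolase TKL2), where 3.06% of all genes were, and 5 were called higher in YM (PDC5, PDC6, ARO10, ILV2 and TKL2), against 11.0% of all genes. None was past the fold threshold downward in WYF or called lower in YM. This list and that of further thiamine genes were written with earlier results known, so nothing is read from their counts. The median log2 change of the 11 enzymes was 0.51 in WYF, against -0.01 for all genes, and 0.55 in YM, against 0.00. ARO10, at 4.86 ± 4.49 CPM with Cr41 and 0.739 ± 1.02 CPM untreated in YM, had overlapping ranges and an adjusted p = 0.039. ILV2, the acetolactate synthase, rose in YM (3303 ± 182 CPM with Cr41 and 1115 ± 38.4 CPM untreated, log2 1.58 ± 0.05, adjusted p = 6.8e-11), and its WYF difference was 0.58 ± 0.06. In RM11, 2 of 11 were past the fold threshold in WYF (1.23% of all genes upward) and 1 of 10 was called in YM (0.946%). In WYF these were TKL2, at 385 ± 31.1 CPM with Cr41 and 135 ± 15.7 CPM untreated (log2 1.51 ± 0.07, and 1.01 ± 0.08 in S288c), and PDC6, at 6.66 ± 0.755 CPM with Cr41 and 3.14 ± 0.797 CPM untreated (log2 1.08 ± 0.18), with ranges apart for both. In YM it was TKL2, at 219 ± 49.9 CPM with Cr41 and 55.0 ± 7.48 CPM untreated in YM (log2 1.98 ± 0.15, adjusted p = 1.1e-06). The subunits PDA1 and PDB1 of pyruvate dehydrogenase, KGD1 and TKL1 reached the fold threshold in neither medium in S288c.

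Of 17 further thiamine genes, 15 passed the filter in S288c in WYF and 4 of them were past the fold threshold upward (THI72, PET18, SNZ2 and SNZ3), where 3.06% of all genes were. In YM 16 were tested and 4 were called higher (THI11, THI13, THI72 and PET18), against 11.0% of all genes. None was past the fold threshold downward in WYF or called lower in YM. The median log2 change of those tested was 0.30 in WYF, against -0.01 for all genes, and 0.66 in YM, against 0.00. THI71 fell in S288c in YM without being called, to 40.4 ± 1.37 CPM with Cr41 from 58.9 ± 2.40 CPM untreated, with ranges apart. PET18, whose protein is weakly similar to proteins of thiamine metabolism, had 139 ± 6.16 CPM with Cr41 and 18.3 ± 3.97 CPM untreated in WYF (log2 2.95 ± 0.13). Its YM levels were 127 ± 17.6 CPM with Cr41 and 14.2 ± 2.78 CPM untreated (log2 3.17 ± 0.13, adjusted p = 1.3e-09). In RM11 in YM it was lower, at 33.3 ± 1.31 CPM with Cr41 and 44.4 ± 2.21 CPM untreated (log2 -0.42 ± 0.07, adjusted p = 0.0015), under the fold threshold. THI72, a transporter related to THI7, rose in S288c in YM (7.39 ± 1.74 CPM with Cr41 and 2.09 ± 0.642 CPM untreated, log2 1.82 ± 0.27, adjusted p = 9.4e-05). The activator PDC2 differed by 0.17 ± 0.07 in WYF and by -0.18 ± 0.08 in YM (adjusted p = 0.064) on the log2 scale. THI5, THI11, THI12 and THI13 are near-identical copies, as are SNZ2 with SNZ3 and SNO2 with SNO3, so their separate counts are uncertain. The YM ranges of THI11 and of THI13 overlapped (adjusted p = 0.011 and 0.044).

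**Figure D4:**
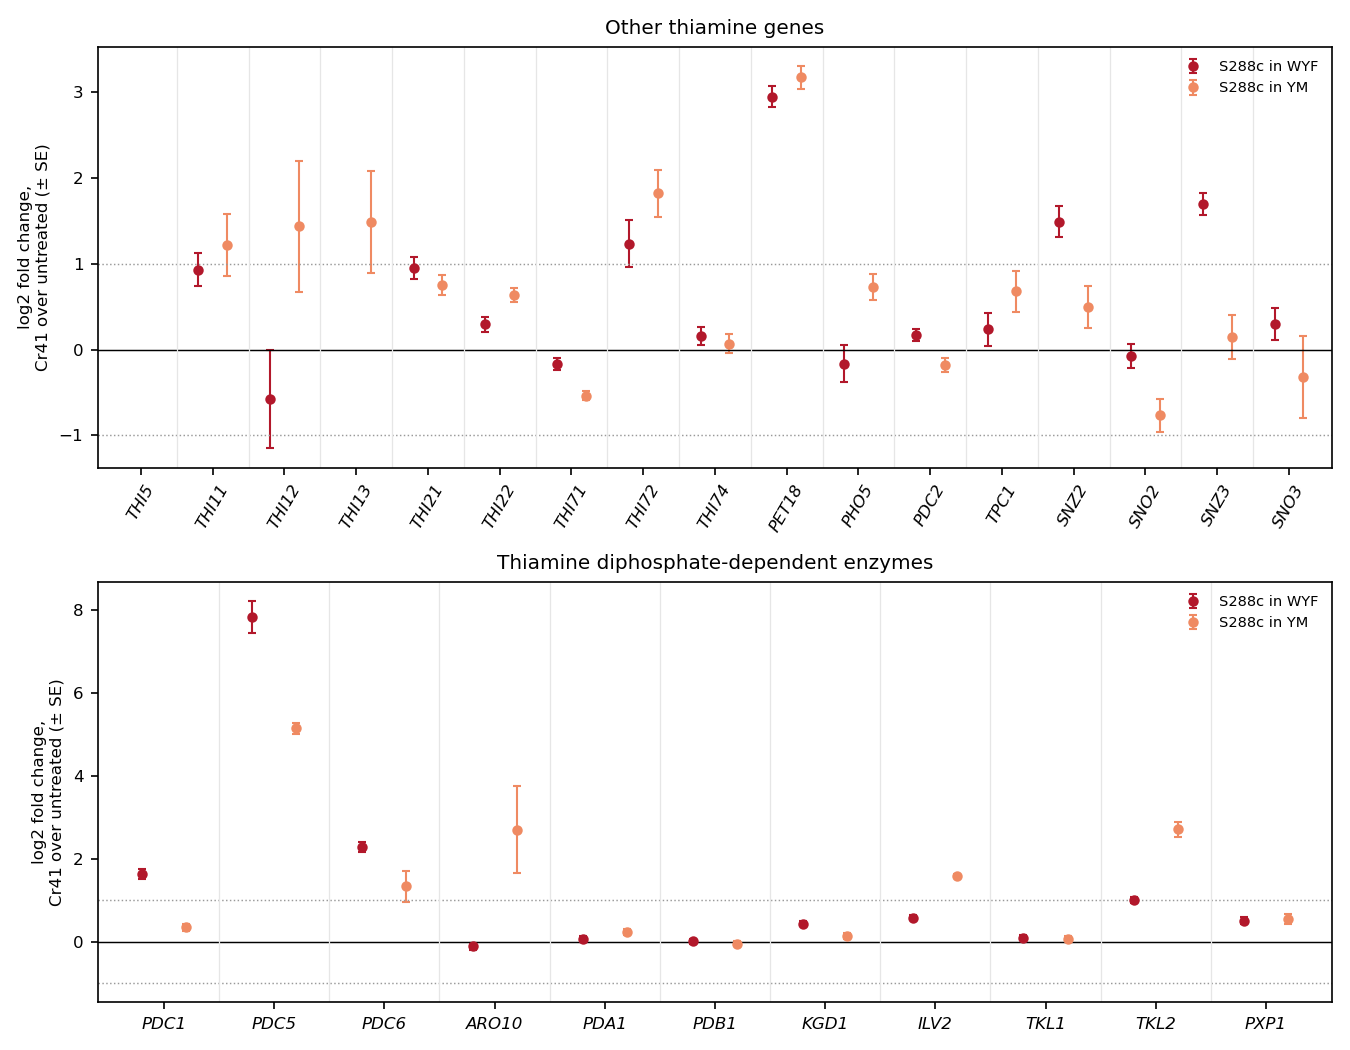
Log2 fold change with Cr41 over untreated in S288c for 17 other thiamine genes (top) and 11 enzymes that use thiamine diphosphate (bottom), in WYF and YM (edgeR); points are estimates, bars are ± 1 standard error from 5 libraries a group, and dotted lines mark the fold threshold. PET18 stands near 3 in both media and PDC5 at 7.83 in WYF and 5.14 in YM; THI5 in both media and THI13 in WYF have no point because they did not pass the filter.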

How the data were processed

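RNA-seq of 40 libraries was analysed. The authors aligned 76-base read pairs with Salmon (version 0.13.1) to an S288c transcriptome for both strains, whose release is not given in the sources used here. The deposited tables give 6661 transcripts, each with an estimated count that was not normalized. TPM was derived by the authors from the same counts and the effective lengths, in bases. Names of 5993 transcripts matched the RefSeq R64 annotation and 668 did not.

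Estimated counts were rounded, and each comparison was fitted over all genes with edgeR 4.0.16 under R 4.3.3 (TMM factors, genes kept by filterByExpr, quasi-likelihood F test, Benjamini-Hochberg adjustment). Cr41 was set against untreated cells in the 10 libraries of a strain and medium, and strains and interactions in the 20 libraries of a medium. Standard errors of log2 changes were taken from the fold change and its F value. Intervals for summed reads (exact Poisson-based, 95%) cover counting error only. Depth was 4224356 to 7866046 estimated counts, so genes at a few reads per library are imprecise.

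The members and the gene lists, written from general knowledge, were chosen with earlier results of these data known, the YM results included. In WYF no p-value was used for the members, the lists or the shares of all genes set beside them. Genes were counted there by a log2 change of at least 1 in size. This description was chosen after seeing the data, in place of calls that also need an adjusted p. Adjusted p-values entered in WYF only where all genes called were compared between ways of processing. Named were all members, both lists, and the genes with the most similar profile. Alternatives were DESeq2 1.42.0, limma 3.58.1 on log2(TPM + 1), RLE factors, effective lengths as offsets, no filter, the replicate block, 1 fit over all libraries, only the groups compared, and each replicate left out. No replicate pair differed by less than sampling noise (chi-square per degree of freedom 2.30 to 61.6 over 80 pairs). The fits were tested on simulated counts. Sequences were read with Biopython 1.88.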

Additional observations from a re-analysis of the deposited data

Results flagged for a closer look

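In 4 of 72 sets of 5 libraries (a gene in a group), 1 library stood apart from the rest by Dixon's criterion, where chance flags about 1 in 20, or 3.6 sets. THI6 had 45.2 CPM in S288c YM Cr41 replicate 2, against 57.9 to 59.7 CPM in the other libraries of that group. THI6 had 17.7 CPM in S288c WYF untreated replicate 4, against 21.5 to 22.3 CPM in the others. THI4 had 0.913 CPM in RM11 WYF untreated replicate 5, which is 5 reads, against 0.442 to 0.574 CPM. THI3 had 34.2 CPM in that same library, against 31.4 to 32.2 CPM.

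In YM, 7 genes responded to Cr41 unequally in the strains by the interaction test (edgeR). The genes were chosen with the YM results known, so these adjusted p-values are not independent evidence. The S288c log2 change less the RM11 one was 4.93 for THI4, 3.79 for THI73, 3.64 for PHO3, 2.84 for THI20, 2.65 for THI7, 2.07 for THI2 and 1.86 for THI6, with adjusted p between 6.1e-13 and 6.3e-08. For each of these genes all 5 S288c libraries with Cr41 lay above all 5 untreated ones. The RM11 ranges overlapped.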

How the results depend on the processing

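In 8 of the 10 comparisons the number of members called (YM) or past the fold threshold (WYF) stayed within 1.5 times the main count under every alternative run. For S288c against RM11 in untreated WYF cells, 2 were past it, and 1 with limma on log2(TPM + 1), where THI7 stood at -0.89, or with only the 2 groups in the fit, where THI4 failed the filter. In untreated YM cells, 2 were called, and 1 with limma on log2(TPM + 1); leaving out 1 library gave 1 to 4. Values near 0 changed sign without being called. For THI3 in RM11 in YM (0.00) the log2 change was -0.0058 with DESeq2, -0.0060 with RLE factors, -0.0022 with the replicate block and -0.039 to 0.076 with 1 library left out. For THI80 in S288c in YM (0.01) it was -0.073 with limma on log2(TPM + 1), -0.027 with no filter and -0.047 to 0.087 with 1 library left out. For THI20 in RM11 in YM (-0.01) it was 0.031 with limma on log2(TPM + 1) and -0.062 to 0.017 with 1 library left out. Leaving out 1 library gave -0.11 to 0.014 for THI7 in RM11 in YM and -0.50 to 0.044 for THI4 between untreated strains in YM. The cause of these shifts was not tested.

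The pairing by replicate number was only a shared number, since same-numbered libraries correlated between -0.37 and 0.54 after removing group means. With the replicate block the counts of members were unchanged in all 10 comparisons: 7 in S288c and 0 in RM11 in either medium, 7 and 2 between strains in WYF with Cr41 and untreated, 6 and 2 in YM, and 8 and 7 for the interaction in WYF and YM. Over all genes, limma on log2(TPM + 1) moved the median change in S288c in YM to -0.14, the interaction in YM to -0.17 and the strain difference in untreated cells to 0.16 in WYF and 0.11 in YM. Among all genes called (adjusted p and fold), the share that was higher became 42.1% against 55.6%, 41.1% against 57.2% and 67.1% against 56.8% in the first 3 of these, and 70.6% against 57.1% in RM11 in YM. A single fit over all 40 libraries gave 55.3% against 72.2% in RM11 in WYF. In RM11, THI4 at 2 to 9 reads per library is limited by depth.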

Other observations

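The genes SNZ2 and SNZ3, which belong to the vitamin B6 family that feeds the pyrimidine of thiamine, are near-identical, and so are SNO2 and SNO3 beside them, so their summed CPM are more secure than the separate counts. SNZ2 and SNZ3 together had 103 ± 12.8 CPM with Cr41 and 33.7 ± 1.49 CPM untreated in S288c in WYF, with no overlap. In YM the S288c sums were 28.7 ± 8.48 CPM with Cr41 and 23.6 ± 3.82 CPM untreated, and the ranges overlapped. In RM11 they were 43.4 ± 3.61 CPM with Cr41 and 47.5 ± 2.76 CPM untreated in WYF, and 47.3 ± 6.09 CPM and 47.1 ± 1.77 CPM in YM (SD, n = 5 each). SNO2 and SNO3 together had 46.9 ± 4.10 CPM with Cr41 and 45.5 ± 7.86 CPM untreated in S288c in WYF, with overlapping ranges. In S288c in YM their sum was lower with Cr41, at 22.2 ± 4.70 CPM against 35.5 ± 2.85 CPM untreated, with ranges apart.

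Within these pairs RM11 reads went to 1 copy. SNZ2 had means of 0.0785 to 0.823 CPM in the 4 RM11 groups while SNZ3 had 42.7 to 47.0 CPM. SNO3 was at 0 CPM in all 20 RM11 libraries while SNO2 had 57.5 to 59.6 CPM. In S288c both copies of each pair received reads. Whether RM11 lacks a copy, or its sequence matches only 1 of the S288c copies, was not tested.

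THI5, THI11, THI12 and THI13, which make the pyrimidine of thiamine, summed to 15.0 ± 3.15 CPM with Cr41 and 10.2 ± 2.87 CPM untreated in S288c in WYF. In YM the sums were 25.2 ± 15.3 CPM with Cr41 and 8.90 ± 6.08 CPM untreated, and the ranges overlapped in both media. RM11 sums lay between 22.5 and 25.4 CPM in its 4 groups.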
